A study of Mus musculus with 34 samples.

Results

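The oocyte genes described here are 37 genes, chosen by name, that growing and fully grown oocytes use: zona pellucida and growth factor genes, their transcription factors, the subcortical maternal complex and the Nlrp genes. Of the 28706 genes in the soma table all 37 were present, and of the 27021 genes in the table for primordial germ cells (PGCs) 33 were, with Nobox, Sohlh1, Mos and Ooep not among them. Whether they were expressed at this stage was not measured here.

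The series profiled H3K9me2, a histone mark of repressed chromatin, by CUT&RUN, in which an antibody directs a nuclease to cut out the DNA around the mark. Gonads came from E13.5 female Gulo-/- embryos of C57BL/6 background, which cannot make vitamin C and depend on the maternal diet, and this diet either supplied vitamin C at physiological level or withdrew it during gestation, in its first 2 weeks. Oct4GFP+ PGCs, the precursors of oocytes, and Oct4GFP- soma, the mixed remainder of the gonad, were sorted and 1000 cells were used per library. The H3K9me2 groups held 4 supplied and 3 withdrawn libraries of soma and 5 supplied and 5 withdrawn libraries of PGCs, and the same numbers of IgG control libraries were made. The analysis rests on the authors' deposited tables of statistics, which hold no values per library, so neither the cell type labels nor the spread of a gene over libraries could be checked. The table headers name no antibody, and the tables are taken to be those of H3K9me2. Soma values were read as withdrawn minus supplied from the standard errors, and the sign in PGCs was assumed to be the same, since equal group sizes do not reveal it. The labels do not say whether libraries of a group came from separate embryos, so any spread between libraries may be technical. The p-values rest on standard errors that follow the group means of a gene and not its own spread between libraries.

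Most of these genes are silent in the embryonic germ line and switch on after birth or shortly before it, when oocytes are enclosed in follicles and grow. FIGLA, NOBOX, SOHLH1, SOHLH2 and LHX8 form the transcription factor network that starts this program, and the proteins made under it build the egg coat, signal to the surrounding granulosa cells and store maternal factors for the embryo. H3K9me2 is laid down mainly by the methyltransferases GLP and G9a over broad silent domains and is removed by KDM enzymes that need iron and are helped by vitamin C.

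Promoter windows of 250 bases before to 50 after the gene start, from RefSeq on build GRCm38.p6 (mm10), were used for 27 of the 37 genes, counting 1 window per gene. Windows of 2 kinds are shown, those of genes with several E-boxes and those of Nlrp genes alike in sequence. The first set is of Zp3, the zona gene whose value stood apart in soma, and Sohlh1, with the E-box CANNTG in capitals, the element that basic helix-loop-helix factors such as FIGLA and SOHLH1 bind. Zp3 (chr5:135979855-135980154, plus strand) holds 4 E-boxes and Sohlh1 (chr2:25847199-25847498, minus strand) 5, of which 1 and 3 read CACGTG.
Zp3: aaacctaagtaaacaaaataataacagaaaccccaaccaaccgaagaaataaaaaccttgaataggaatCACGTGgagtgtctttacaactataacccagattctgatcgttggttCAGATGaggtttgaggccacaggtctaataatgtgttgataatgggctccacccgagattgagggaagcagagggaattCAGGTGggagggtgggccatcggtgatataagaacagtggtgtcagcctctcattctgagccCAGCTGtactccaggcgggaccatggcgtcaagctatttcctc
Sohlh1: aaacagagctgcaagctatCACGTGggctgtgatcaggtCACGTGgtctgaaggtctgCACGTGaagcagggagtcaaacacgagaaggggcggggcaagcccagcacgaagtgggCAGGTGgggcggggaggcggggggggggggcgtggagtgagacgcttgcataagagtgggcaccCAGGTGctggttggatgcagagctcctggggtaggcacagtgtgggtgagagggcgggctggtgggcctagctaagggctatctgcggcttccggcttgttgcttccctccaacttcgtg

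The second set is of Nlrp genes with similar windows. Reads may be shared where such genes match, but identity was computed over these windows only. Nlrp4a (its second window, inside the gene, chr7:26435364-26435663, plus strand) and Nlrp4b (chr7:10687543-10687842, plus strand) are shown with CpG dinucleotides in capitals. These 2 windows were 72.4% identical over their alignment, with no shared run longer than 16 bases. Nlrp9a (chr7:26534773-26535072, plus strand) and Nlrp9c (chr7:26403651-26403950, minus strand) were 71.2% identical and shared an unbroken run of 106 bases, which is in capitals.
Nlrp4a: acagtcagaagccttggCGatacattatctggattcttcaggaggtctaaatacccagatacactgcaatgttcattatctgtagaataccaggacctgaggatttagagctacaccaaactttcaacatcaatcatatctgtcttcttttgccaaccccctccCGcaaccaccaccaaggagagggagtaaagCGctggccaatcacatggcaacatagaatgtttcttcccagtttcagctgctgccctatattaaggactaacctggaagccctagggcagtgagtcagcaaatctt
Nlrp4b: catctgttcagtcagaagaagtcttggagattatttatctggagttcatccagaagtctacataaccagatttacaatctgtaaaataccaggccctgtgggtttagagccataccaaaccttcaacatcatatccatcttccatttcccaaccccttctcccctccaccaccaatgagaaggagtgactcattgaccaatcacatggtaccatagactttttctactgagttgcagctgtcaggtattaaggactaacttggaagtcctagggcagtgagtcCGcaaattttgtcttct
Nlrp9a: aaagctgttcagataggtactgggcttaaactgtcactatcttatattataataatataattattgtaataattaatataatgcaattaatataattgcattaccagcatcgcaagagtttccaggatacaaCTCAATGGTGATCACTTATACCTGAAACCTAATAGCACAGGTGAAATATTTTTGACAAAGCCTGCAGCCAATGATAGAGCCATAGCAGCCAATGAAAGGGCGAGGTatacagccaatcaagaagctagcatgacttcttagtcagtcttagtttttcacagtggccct
Nlrp9c: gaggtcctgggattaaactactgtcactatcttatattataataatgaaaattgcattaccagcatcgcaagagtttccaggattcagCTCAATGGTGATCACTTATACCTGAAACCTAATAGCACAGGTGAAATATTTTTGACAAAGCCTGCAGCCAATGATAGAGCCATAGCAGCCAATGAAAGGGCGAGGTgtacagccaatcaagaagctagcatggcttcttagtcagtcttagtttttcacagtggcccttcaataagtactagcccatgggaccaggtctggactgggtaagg

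The windows of oocyte genes held few CpG dinucleotides, the sites of DNA methylation. Their median count was 4 CpG, against 7 over all 32851 windows of the table. Of the 27 windows 25 had a ratio of observed to expected CpG under 0.6, against 64.2% of all windows. In the 10 Nlrp windows the median was 2 CpG, and the windows of Khdc3 and Nlrp4e held 0. For Nlrp5 the counted window, inside the gene, held 1 CpG, while its other window, at the gene start, held 9. Sohlh2, Tle6, Zar1, Figla and Ooep held the most, from 15 to 18 CpG each. An E-box was present on either strand in 25 of 27 windows, against 72.3% of all windows, and CACGTG, which is also an E-box, in those of Zp3, Sohlh1 and Tle6, against 7.15% of all windows. The homeobox element TAATTG, read on both strands, was found in the windows of Nlrp9a, Nlrp9b, Ooep and Padi6 and in 8% of all windows. These matches are letters in a window and say nothing of whether a factor bound there. The other members, Taf4b among them, are missing from these counts. They had no window in the source or lay on a chromosome that was left out.

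The first comparison set soma of embryos without vitamin C against soma of those with it. Signal rose over 27 of the 37 genes and fell over 0 past an adjusted p of 0.05 by limma according to the authors' deposited table, while it rose over 68.2% of all genes there and fell over 0.101%. The median oocyte gene stood at a log2 fold change of 1.13, a 2.19-fold higher signal, against 1.04 for all genes according to the authors' deposited table. Among them 35 values were above 0, as were 96.8% of all genes, and 31 had an unadjusted p under 0.05, Npm2 on the lower side among them, beside 71.8% of all genes, 71.7% higher and 0.143% lower. The share of oocyte genes that rose is thus near the share of all genes, and the values of the 37 genes spread by 0.48 (SD, log2) around their mean, against 0.51 for all genes.

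Genes with a higher average passed more often. The geometric mean effective library size was 1512598 reads or more in soma and 613600 or more in PGCs, both least values, and at that depth the median oocyte gene drew at least 24.6 reads in a soma library and 7.41 in one of PGCs. Of the 22 oocyte genes with an average at or above the median gene of soma 21 rose, beside 87.1% of all genes of such averages, and of the 15 below it 6 rose, beside 49.2%. The standard errors of the authors' deposited table for soma follow from the group means to within 0.272%, so they carry the depth of a gene and not its own spread between libraries. With 5 degrees of freedom, those left over from 7 libraries, in place of the pooled 143530, 18 of the 27 rises passed, beside 32.1% of all genes, and those of Zp1, Sohlh1, Lhx8, Oosp3, Padi6, Khdc3, Nlrp4a, Nlrp4e and Kpna7 did not.

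**Figure D1:**
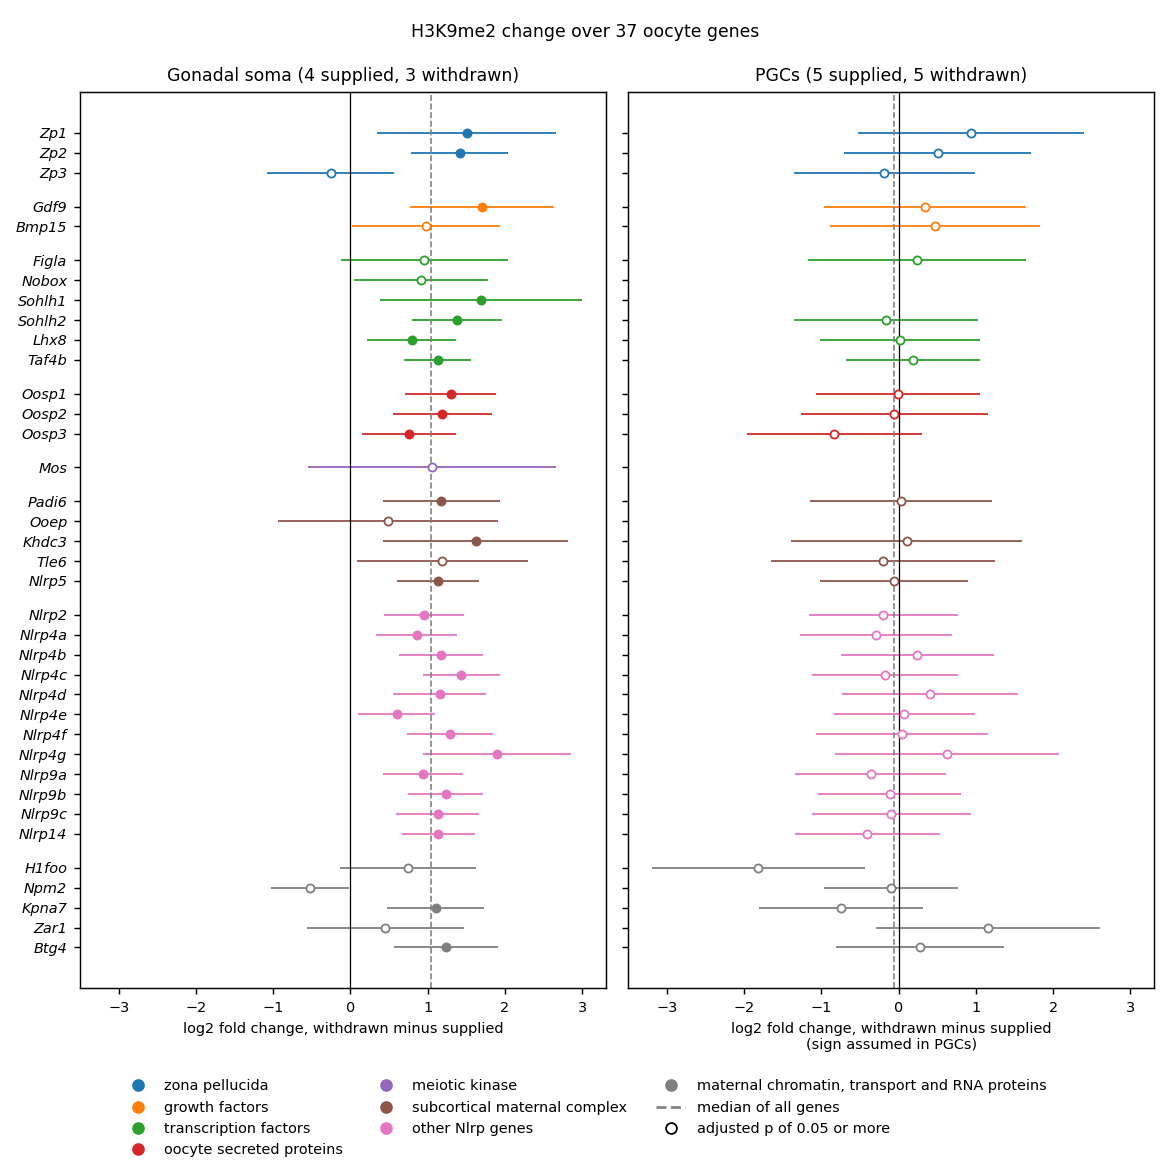
Log2 fold change of H3K9me2 signal, withdrawn minus supplied, for each oocyte gene in soma (left) and PGCs (right), with 95% confidence intervals as bars and colours for roles; open circles have an adjusted p of 0.05 or more and the dashed line is the median of all genes. In soma 27 filled circles lie to the right of 0, with Zp3 and Npm2 to its left, and in PGCs every circle is open.

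Of the 3 zona pellucida genes, which encode the glycoproteins of the egg coat, 2 rose in soma. In the authors' deposited table Zp1 rose by 1.502 ± 0.59 (log2, SE; adjusted p = 0.0194) and Zp2 by 1.41 ± 0.32 (adjusted p = 6.15e-05). Zp1 had at least 4.28 reads per library and Zp2 at least 24.6. Group levels can be approximated from the average and the fold change. For Zp2 this gave 10.7 CPM (counts scaled to a fixed library size) with vitamin C and 28.5 without. Zp3, which encodes the main sperm-binding glycoprotein of the mouse, stood at -0.26 ± 0.42 (95% interval -1.07 to 0.56; adjusted p = 0.571) according to the authors' deposited table, or about 7.89 and 6.60 CPM. It lay at percentile 1.58 of all log2 fold changes and 1.30 below the median gene, a distance that did not pass (unadjusted p = 0.00184, adjusted p = 0.101). Its neighbours were unlike each other: Ssc4d, 5.57 kb away, rose by 1.07 ± 0.36 (adjusted p = 0.00635), and Dtx2, 6.18 kb away on the other side, stood at 0.0014 ± 0.26 (adjusted p = 0.997) according to the authors' deposited table.

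Both growth factors are ligands that the oocyte secretes to direct granulosa cells. Gdf9 rose by 1.70 ± 0.48 (adjusted p = 0.00107), or from about 2.99 to 9.73 CPM, per the authors' deposited table. It overlaps Uqcrq, and their reads over the shared part cannot be told apart. X-linked Bmp15 stood at 0.98 ± 0.49 (adjusted p = 0.0648) according to the authors' deposited table, so that a call was made for one ligand and not for the other. The difference between them was not tested, and their intervals overlap, from 0.77 to 2.64 for Gdf9 and from 0.017 to 1.93 for Bmp15.

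Of the 6 transcription factor genes 4 rose in soma, with a median of 1.04 according to the authors' deposited table. Sohlh1, whose product starts the oocyte program together with SOHLH2, had the highest value at 1.69 ± 0.67 (adjusted p = 0.0194), and Sohlh2 rose by 1.38 ± 0.30 (adjusted p = 3.1e-05) according to the authors' deposited table. Taf4b, a subunit of the general factor TFIID in germ cells and the longest of the 37 genes at 177 kb, rose by 1.13 ± 0.22 (adjusted p = 6.21e-06), from about 105 to 230 CPM, per the authors' deposited table. Lhx8, a LIM homeobox factor, had the lowest value of those that rose, 0.80 ± 0.29 (adjusted p = 0.0127) according to the authors' deposited table. Figla, the activator of the zona genes, stood at 0.96 ± 0.55 (adjusted p = 0.107) and Nobox, the oocyte homeobox factor, at 0.91 ± 0.44 (adjusted p = 0.0545) according to the authors' deposited table. These 2 short genes had at least 5.01 and 8.77 reads per library, and both intervals include a 2-fold rise. Sohlh1, which rose, is shorter than both at 4.25 kb and had fewer reads, at least 3.21 per library.

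The Oosp genes, all on chromosome 19, encode proteins that oocytes secrete, and each of the 3 rose in soma. In the authors' deposited table Oosp1 rose by 1.30 ± 0.30 (adjusted p = 9.34e-05), Oosp2 by 1.19 ± 0.33 (adjusted p = 0.000915) and Oosp3 by 0.76 ± 0.31 (adjusted p = 0.023). Mos, the kinase that drives the MAP kinase pathway in meiotic maturation, is the shortest of the 37 genes at 1.45 kb and had at least 1.92 reads per library. It stood at 1.06 ± 0.82 (adjusted p = 0.233) according to the authors' deposited table, an interval from -0.55 to 2.66.

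The subcortical maternal complex is a protein lattice under the oocyte membrane that the embryo needs for its first divisions. Of its 5 genes 3 rose in soma, with a median of 1.18 according to the authors' deposited table. Khdc3 was highest at 1.62 ± 0.61 (adjusted p = 0.0143), and Nlrp5, known as Mater, rose by 1.13 ± 0.27 (adjusted p = 0.000171) according to the authors' deposited table. Khdc3 had at least 4.02 reads per library. Padi6, a peptidylarginine deiminase family member, rose by 1.18 ± 0.39 (adjusted p = 0.00506) according to the authors' deposited table. Ooep, an RNA-binding-domain subunit with at least 2.65 reads per library, was lowest at 0.48 ± 0.73 (adjusted p = 0.543), and Tle6 stood at 1.19 ± 0.57 (adjusted p = 0.0516) according to the authors' deposited table. Tle6 overlaps Tle2, so their reads over the shared part cannot be separated.

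The Nlrp genes encode proteins with a NACHT and a leucine-rich repeat domain, and the members named here are known mainly from oocytes and early embryos. All 13 of them, Nlrp5 included, rose in soma according to the authors' deposited table, with a median of 1.14 and a range from 0.60 to 1.90. They are long and well covered genes apart from Nlrp4g, and among all genes with an average at or above that of Nlrp4d, the next lowest, 89.9% rose. Nlrp4g (chromosome 9) was highest at 1.90 ± 0.49 (adjusted p = 0.00043), or from about 2.66 to 9.91 CPM, per the authors' deposited table. Nlrp4e (chromosome 7) was lowest at 0.60 ± 0.25 (adjusted p = 0.0297), from about 39.3 to 59.5 CPM, per the authors' deposited table. Nlrp4c had the smallest p, at 1.44 ± 0.26 (adjusted p = 9.67e-07), from about 28.8 to 77.9 CPM, per the authors' deposited table. None of the 13 differed from the median gene past the threshold, 9 lying above it and 4 below (Nlrp2, Nlrp4a, Nlrp4e and Nlrp9a).

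Of the Nlrp genes 11 lie on chromosome 7, in 4 runs of genes under 1 Mb apart and 2 single positions, so they do not form a single cluster. Nlrp9c, Nlrp4a and Nlrp9a, side by side within 209 kb, stood at 1.13, 0.86 and 0.94 in soma, and Nlrp4e and Nlrp5, 23.6 kb apart, at 0.60 and 1.13 according to the authors' deposited table. Nlrp9a and Nlrp9c are the copies with the shared promoter run shown above, and the sources used here do not state how reads matching several copies were counted. In the other runs 12 genes lie between Nlrp genes, mostly short vomeronasal receptor genes of low average, and 4 of the 12 rose with a median of 0.87 according to the authors' deposited table. Of all genes with an average below the median gene 49.2% rose. Among the 12, Gm5065 overlaps part of Nlrp2, and their reads over that part cannot be separated. Zik1, a zinc finger gene between Nlrp4d and Nlrp4b with an average of 4.67 log2 CPM, stood at 0.093 ± 0.29 (adjusted p = 0.768), beside 1.16 ± 0.31 for Nlrp4d and 1.17 ± 0.28 for Nlrp4b according to the authors' deposited table. Vmn1r63, a vomeronasal receptor gene between Nlrp2 and Nlrp4c, had the smallest p of the 12, at 1.54 ± 0.34 (adjusted p = 4e-05) according to the authors' deposited table.

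**Figure D2:**
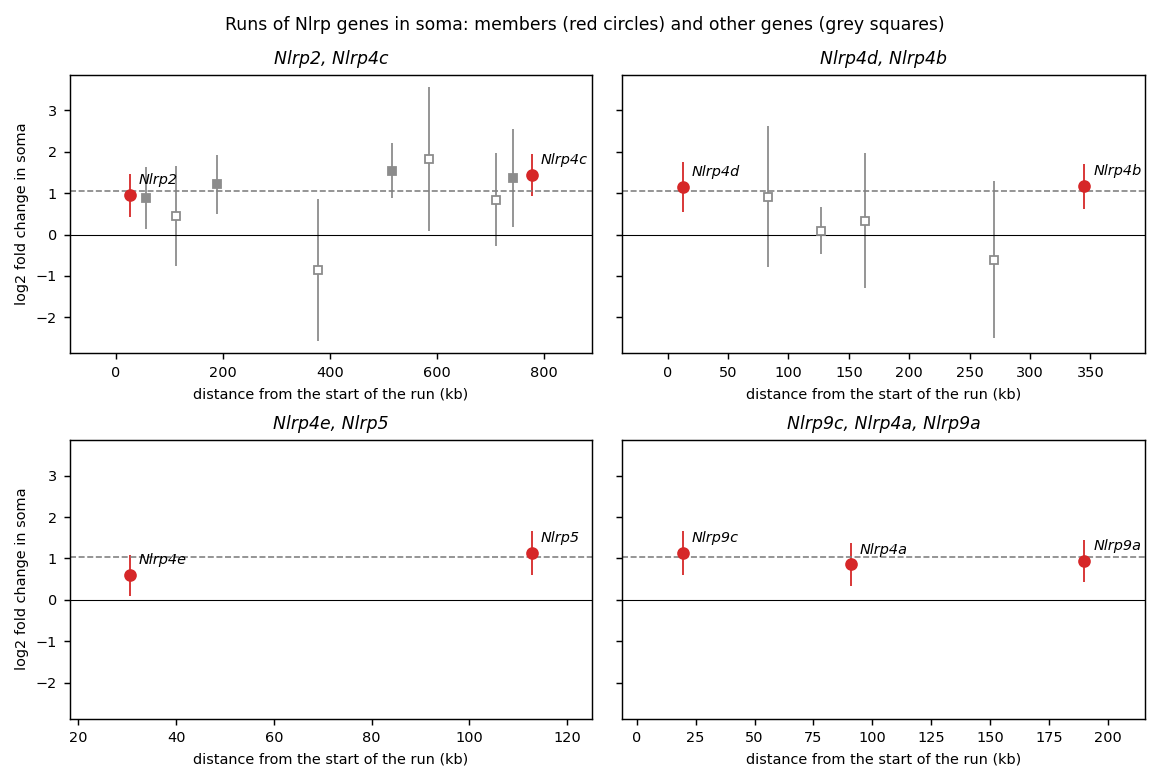
Log2 fold change in soma, withdrawn minus supplied, against distance from the start of each of the 4 runs of Nlrp genes on chromosome 7, with 95% intervals; red circles are Nlrp members, grey squares other genes, filled where the adjusted p is under 0.05, and the dashed line is the median of all genes. The 9 Nlrp genes lie between 0.60 and 1.44, while the genes between them range from -0.85 to 1.82.

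The last set comprises proteins that the oocyte stores or uses at maturation and fertilisation, and 2 of its 5 genes rose in soma. Btg4, an adaptor of the deadenylase that clears maternal mRNA, was highest at 1.24 ± 0.34 (adjusted p = 0.00104), and Kpna7, an importin alpha of oocytes, rose by 1.10 ± 0.32 (adjusted p = 0.00156) according to the authors' deposited table. Each overlaps an uncharacterised gene. H1foo, the oocyte linker histone, stood at 0.74 ± 0.45 (adjusted p = 0.124) and Zar1, an RNA-binding maternal factor, at 0.45 ± 0.52 (adjusted p = 0.423) according to the authors' deposited table.

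Npm2, the histone chaperone that remodels sperm chromatin in the egg, had a negative value, as Zp3 did. It was lowest of the 37 genes at -0.53 ± 0.26 (95% interval -1.03 to -0.024; adjusted p = 0.0575) according to the authors' deposited table, or about 57.8 CPM with vitamin C and 40.2 without. It stood 1.57 below the median gene (adjusted p = 5.94e-07, limma standard errors with Benjamini-Hochberg adjustment), the only one of the 37 to differ from the median, as 1.3% of all genes did in the lower and 0.0488% in the higher direction. Xpo7, whose gene ends 0.324 kb away, rose by 0.79 ± 0.23 (adjusted p = 0.00208), and Fgf17, 5.03 kb away on the other side, stood at 0.34 ± 0.66 (adjusted p = 0.636) according to the authors' deposited table. With 5 residual degrees of freedom the distance from the median did not pass (adjusted p = 0.982). Under that setting 0% of all genes passed in either direction, so this failure is not particular to Npm2.

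Npm2 also stood apart by its level. Signal over a gene grows with its length, and across the 37 genes the average in soma and the length had a Spearman correlation of 0.93, as a description. Per kb of gene length Npm2 had an average of 1.77 log2 CPM in soma, at percentile 98.5 of genes, and 3.18 in PGCs, at percentile 99.2. The next highest of the 37 in soma were Oosp3 at 0.27 and Oosp2 at 0.13 log2 CPM per kb, and Tle6 was lowest at -1.72. The median oocyte gene was at -0.38 in soma and -0.69 in PGCs, near the -0.47 and -0.55 of all genes with a known length.

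Genes with more signal per kb had lower log2 fold changes in soma. From the lowest to the highest of 20 equal bins of all genes by level per kb the median log2 fold change went from 1.24 to 0.43, and the 37 oocyte genes had a Spearman correlation of -0.60 between level per kb and log2 fold change, as a description in which both axes share the same libraries. Against the 475 genes whose level per kb lay within 0.5 log2 of its own, with a median log2 fold change of 0.34, Npm2 stood 0.87 lower and did not pass (adjusted p = 0.125), a comparison chosen after seeing the data. Zp3, at percentile 69.3 per kb, stood 1.28 below the 16295 genes of like level per kb (adjusted p = 0.217). Under that comparison 0 of the 37 genes differed past the threshold, beside 0.183% of all genes higher and 0.165% lower.

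**Figure D3:**
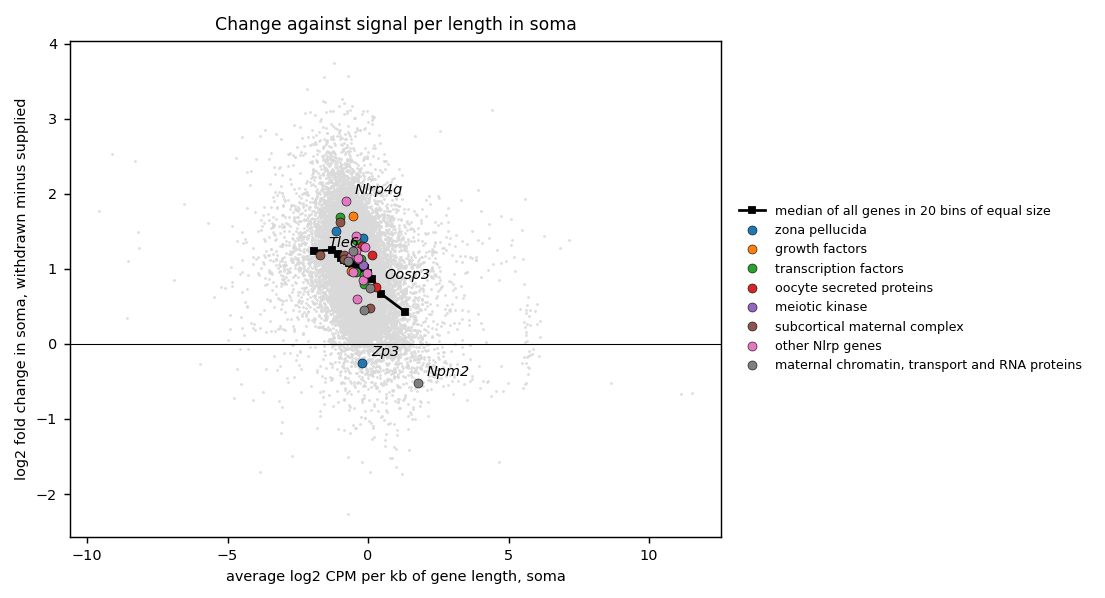
Log2 fold change in soma against average log2 CPM per kb of gene length, for all genes (grey) and the oocyte genes (coloured by role), with black squares for the median of all genes in 20 bins of equal size. The binned median drops from 1.24 to 0.43 as signal per kb increases, and Npm2 lies below 0 and furthest right of the oocyte genes.

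The second comparison put the same question to PGCs, the cells that become oocytes. None of the 33 oocyte genes measured passed, as 0% of all genes did by limma according to the authors' deposited table, and 1 of the 33 had an unadjusted p under 0.05, beside 0.984% of all genes. The median was -0.012 against -0.064 for all genes according to the authors' deposited table, with 16 values above 0 and 17 below, where 42.7% of all genes were above 0. The t values of all genes there had a standard deviation of 0.707, where 1 would follow from the standard errors if no gene changed. The sign of each value below turns if the contrast was subtracted the other way.

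H1foo had the lowest value of the 33, -1.82 ± 0.70 (unadjusted p = 0.00977, adjusted p = 1), or about 7.27 CPM with vitamin C and 2.07 without, per the authors' deposited table, on at least 2.38 reads per library. Zar1 had the highest at 1.16 ± 0.74 (unadjusted p = 0.119, adjusted p = 1) on at least 1.54 reads, followed by Zp1 at 0.93 ± 0.75 (unadjusted p = 0.211, adjusted p = 1) on at least 1.47 reads according to the authors' deposited table. Oosp3 stood at -0.84 ± 0.58 (unadjusted p = 0.148, adjusted p = 1) according to the authors' deposited table. The other values of 0.5 or more in size were those of Kpna7 at -0.75, Nlrp4g at 0.63 and Zp2 at 0.51 according to the authors' deposited table.

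Over the Nlrp genes in PGCs the values lay from -0.40 for Nlrp14 to 0.63 for Nlrp4g, with a median of -0.093 according to the authors' deposited table. Nlrp4c stood at -0.18 ± 0.48, from about 39.5 to 34.9 CPM, with an interval from -1.12 to 0.77 according to the authors' deposited table. The best covered genes were Taf4b at 0.19 ± 0.44 and Npm2 at -0.10 ± 0.44, with at least 80.9 and 80.6 reads per library, and their intervals ran from -0.68 to 1.06 and from -0.97 to 0.77 according to the authors' deposited table. A 2-fold rise lies within the interval of Taf4b and 2-fold changes in both directions within that of Figla, from -1.17 to 1.64.

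**Figure D4:**
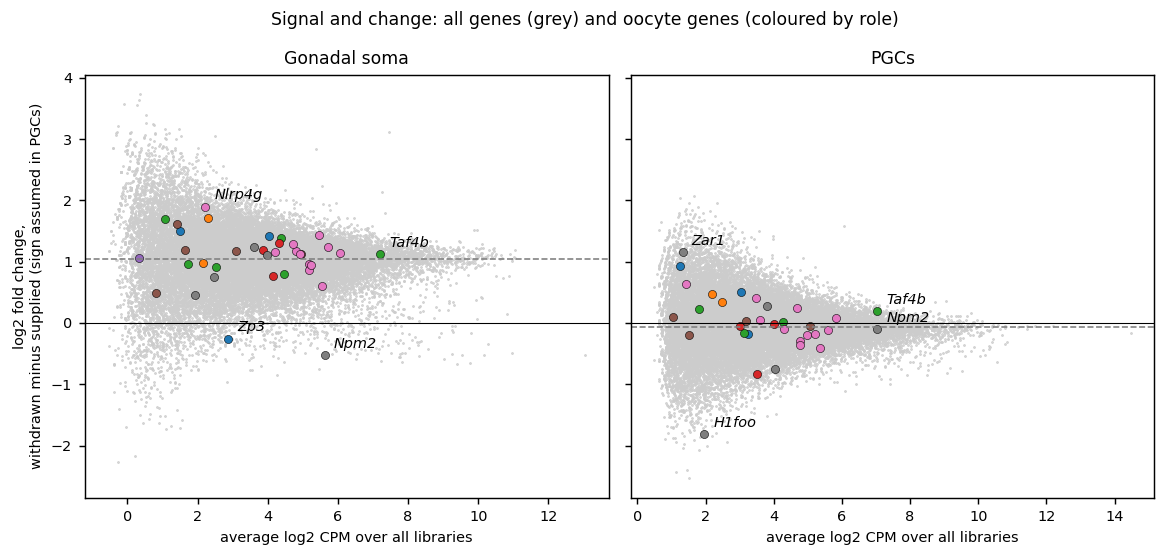
Log2 fold change, withdrawn minus supplied, against average log2 CPM in soma (left) and PGCs (right), with all genes in grey, oocyte genes coloured by role and the median of all genes dashed. In soma most oocyte genes lie along the median of 1.04 with Npm2 and Zp3 below 0, and in PGCs they lie around -0.064 with H1foo lowest.

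The difference between soma and PGCs was tested directly over 26721 shared genes, with the root of summed squared standard errors and Satterthwaite degrees of freedom. Of the 33 oocyte genes 0 passed, as did 0% of all genes, and the smallest adjusted p was 0.105. At an unadjusted p under 0.05, 14 of the 33 were higher in soma and 0 lower, beside 34.4% and 0.015% of all genes. Under the assumed sign, the smallest p-values were those of H1foo, with a difference of 2.56 ± 0.83 (unadjusted p = 0.00212, adjusted p = 0.105), Kpna7, with 1.85 ± 0.63 (unadjusted p = 0.00316, adjusted p = 0.105), and Nlrp4c, with 1.61 ± 0.55 (unadjusted p = 0.00321, adjusted p = 0.105). With the PGC sign turned these differences were -1.07 for H1foo, 0.35 for Kpna7 and 1.26 for Nlrp4c, so that neither this ranking nor the direction of H1foo holds under both signs. With that sign 0 of the 33 passed, with a smallest adjusted p of 0.0841 for Nlrp4g, while 0.958% of all genes were higher in soma and 0% lower. At an unadjusted p under 0.05, 12 of the 33 were then higher and 0 lower, beside 29.3% and 0.131% of all genes. Under the assumed sign the median difference was 1.19 for the oocyte genes and 1.07 for all genes. After each table was centred on its own median, 0 of the 33 were higher and 2 lower at an unadjusted p under 0.05, beside 0.543% and 1.41% of all genes.

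Average signal over these genes was set side by side in the tables of soma and PGCs, which were scaled separately, so no test was made. Of the 33 oocyte genes 23 had the higher average in soma, against 50.2% of all genes. These were 11 of the 13 Nlrp genes and 12 of the 20 others. The average was also higher in soma for 32 of 38 further oocyte genes and 13 of 18 Nlr genes outside the set, described below. Sohlh2 stood 1.23, Nlrp4f 1.14 and Zp2 0.99 log2 CPM higher in soma, and Npm2 1.41 lower. The order of the genes was much the same in both, with a Spearman correlation of 0.96 that the shared gene lengths contribute to.

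Other genes were taken as a comparison from lists fixed by name. Of 41 measured further oocyte genes, among them the Oog, Obox and Fbxw families, 29 rose and 0 fell in soma, with a median of 1.04 according to the authors' deposited table. Beside them 68.2% of all genes rose and 0.101% fell. Fbxw21, an oocyte F-box gene with close copies beside it, had the smallest p at 1.85 ± 0.32 (adjusted p = 4.05e-07), and Dppa3, which PGCs express, stood at -0.24 ± 0.61 (adjusted p = 0.727) according to the authors' deposited table. Of 18 Nlr genes outside the oocyte set, known from inflammasomes and other immune roles, 17 rose with a median of 1.09, and Naip5, a sensor of bacterial flagellin, had the smallest p at 1.57 ± 0.27 (adjusted p = 6.16e-07) according to the authors' deposited table. Most of the 18 had an average above the median gene, and 87.1% of all genes at or above it rose. In PGCs 0 of 38 and 0 of 18 passed according to the authors' deposited table, with medians of 0.092 and 0.028.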

How the data were processed

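Sorted Oct4GFP+ PGCs and Oct4GFP- soma were cryopreserved and libraries were amplified with 18 PCR cycles, per the labels' protocols. Trim Galore 0.4.0, Bowtie2 2.2.5, Picard and mm10 are named in the submitters' processing notes, while the sources used here do not state the counting, filtering or scaling. The authors' deposited tables give log2 fold change, average log2 CPM, a moderated t (a score), a p-value, an adjusted p-value and B, a natural log of odds, from voom and limma, per the file headers.

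Dividing the log2 fold change by t gave its standard error, and the deposited p-values followed from t with pooled degrees of freedom (143530 in soma, 216168 in PGCs). Fitting the squared standard errors as a smooth function of group means left a misfit of 0.272% with soma values read as withdrawn minus supplied and 3.2% with the reverse. Steps between the 400 lowest averages fitted whole reads in 7 and 10 libraries and gave the least library sizes. These sizes carry any scaling the authors applied, and since amplified reads are not separate molecules they speak to counting error only. Changes relative to the median, and the difference between soma and PGCs, were tested over the whole tables with Benjamini-Hochberg adjustment, and checked on simulated data made with limma 3.58.1. Group levels in CPM were approximated from the average and the fold change, which voom weights. Python 3.11.15, scipy 1.17.1 and Biopython 1.88 were used. Gene lengths and promoters came from RefSeq GRCm38.p6, matched by symbol or synonym for 27348 genes of the soma table.

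The members and lists were chosen with earlier results of these data known. All 37 members may be named. Full values are given for members past the threshold relative to the median, the highest and lowest of each role group in soma, and those with the smallest p or largest change in PGCs and in the difference. Of genes outside the set, the one with the smallest p of each list is named, and Zik1, Dppa3 and the neighbours of Zp3 and Npm2 were chosen after their values were seen. Repeat family tables were not used here, since no member is in them, and the IgG libraries were not analysed here.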

Additional observations from a re-analysis of the deposited data

How the results depend on the processing

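Of the 37 oocyte genes, 27 rose in soma, 21 with an adjusted p under 0.01 and 18 with residual degrees of freedom alone, beside 68.2%, 51.1% and 32.1% of all genes. After centring on the median, 0 were higher and 1, Npm2, was lower, beside 0.0488% and 1.3% of all genes. Lhx8, Oosp3, Nlrp2, Nlrp4a, Nlrp4e and Nlrp9a then turned to -0.25, -0.28, -0.087, -0.19, -0.44 and -0.10, none of which passed. When genes in the lowest 25% of averages were left out, 25 of the 29 members kept rose and 1 fell, Npm2 (adjusted p = 0.0498), beside 80.3% and 0.125% of the 21529 genes kept. Relative to the median, 1 gene was lower in soma, Npm2, but 0 with residual degrees of freedom and 0 against genes of like level per kb. With residual degrees of freedom 0% of all genes differed from the median in either direction. Npm2 is thus not particular in losing its call there. Npm2 stayed lower at an adjusted p under 0.01 and against genes of a like average. No setting tried gave a call for these genes in PGCs or in the difference between soma and PGCs, whereas with the PGC sign turned 256 of all 26721 genes were called higher in soma. In average signal, not in change, the median member in soma lay 0.09 log2 CPM above the median gene per kb and 0.63 above it without length correction. No paired analysis was possible because the tables hold no values per library, and leaving out libraries was likewise not run. Depth limits the short genes most: a soma library held at least 1.92 reads over Mos, and a PGC library at least 1.26 over Khdc3.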
